A study of Mus musculus with 6 samples.

Results

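The islet hormone genes encode the peptide hormones that pancreatic islet cells secrete. The set comprised 8 genes chosen by name, namely Gcg, Ins1, Ins2, Iapp, Sst, Ppy, Pyy and Ghrl. All 8 were found among the 23337 gene symbols of the count files, and all 8 were among the 14687 genes that passed the filter on low counts. Transcripts were counted by mRNA sequencing of whole pancreas from NMRI mouse embryos at E13.5. The 3 mutant pools came from embryos labelled Prox1-nullyzygous, with the genotype given as Prox1 GFPCre/D, and the 3 control pools came from wildtype embryos. The labels neither explain the allele symbols nor say which part of the Prox1 locus is missing. Every pool combined 5 to 6 pancreata of 1 genotype and yielded 1 library, so a value is an average over several embryos.

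Islet hormones are made as longer precursors, which are cleaved in secretory granules. Alpha cells make glucagon from the Gcg precursor, beta cells make insulin and amylin, delta cells somatostatin, PP cells pancreatic polypeptide and epsilon cells ghrelin. All of these cells arise from progenitors that switch on the transcription factor gene Neurog3. In the mouse, glucagon-expressing cells dominate the early endocrine population, and the main rise of insulin-expressing cells comes later in gestation. Pyy, a close relative of Ppy, is widely expressed in embryonic islet cells as well as in the gut.

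Libraries held between 16060424 and 17633867 counted reads, so that 1 CPM (a read count relative to the library total after TMM scaling) stood for 15.9 to 17.5 reads. The targeted gene Prox1 had 1330, 1774 and 1602 reads in mutant pools 1 to 3, against 1764, 1687 and 1824 reads in control pools 1 to 3. The groups overlapped and Prox1 was not called (log2 fold change -0.17, SE 0.074, edgeR adjusted p = 0.235). As the deleted part is not stated, this count does not check the genotype labels. Mutant pool 1 and control pool 3 stood apart from the other pools in sex-linked transcripts, with 2 and 9 reads of Xist, whereas the other pools had 33297 to 47135 reads. The pancreatic genes Pdx1 (40.7 CPM in mutants, 50.4 CPM in controls) and Cpa1 (1743 CPM in mutants, 1269 CPM in controls) were expressed throughout.

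The 8 genes lie on 6 chromosomes (GRCm38, GENCODE M21). Gcg is at chr2:62474530-62483650 on the minus strand, Ins1 at chr19:52264297-52265476 on the plus strand and Ins2 at chr7:142678656-142743381 on the minus strand. The annotated span of Ins2 includes distant upstream exons. Iapp is at chr6:142298423-142303961 on the plus strand, and its span overlaps Slco1a5 on the other strand. Slco1a5 had at most 0.236 CPM in any mutant pool and at most 0.179 CPM in any control pool, and how reads in the overlap were assigned is not known. Ghrl is at chr6:113716119-113719880 and Sst at chr16:23889573-23890958, both on the minus strand. Ghrl overlaps the annotated genes Gm26982 and Gm44033 on the other strand, neither of which is among the symbols counted. Ppy (chr11:102099930-102101319) and Pyy (chr11:102106676-102107832) are neighbours on the minus strand, separated by 5356 bases.

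Promoter windows of 300 bases, from 250 before to 50 after the annotated transcript start, were taken from RefSeq (GRCm38.p6) for 7 of the 8 members (all but Ins2), 11 windows in all. Those of the most abundant hormone gene, of the genes with the largest differences, and of the gene that was not called are printed. Capitals mark matches on either strand to the letters TATAAA of the core promoter box of that name, CTAATG (A box of insulin genes), CANNTG (E box) or TGACGTCA (cAMP response element).
Gcg, chr2:62483604-62483903, minus strand: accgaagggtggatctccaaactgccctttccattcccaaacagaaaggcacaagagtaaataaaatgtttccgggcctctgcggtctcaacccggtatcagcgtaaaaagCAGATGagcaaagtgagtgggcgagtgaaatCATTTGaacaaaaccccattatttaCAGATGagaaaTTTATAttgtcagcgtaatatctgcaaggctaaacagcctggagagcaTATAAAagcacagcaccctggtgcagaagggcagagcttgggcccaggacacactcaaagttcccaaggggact
Iapp, chr6:142298175-142298474, plus strand: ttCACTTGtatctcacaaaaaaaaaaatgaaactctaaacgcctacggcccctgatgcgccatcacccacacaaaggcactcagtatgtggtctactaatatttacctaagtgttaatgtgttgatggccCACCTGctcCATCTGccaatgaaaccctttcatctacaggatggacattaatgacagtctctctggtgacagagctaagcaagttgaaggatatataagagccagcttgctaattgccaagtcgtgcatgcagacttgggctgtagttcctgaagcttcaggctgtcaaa
Ppy, chr11:102101270-102101569, minus strand: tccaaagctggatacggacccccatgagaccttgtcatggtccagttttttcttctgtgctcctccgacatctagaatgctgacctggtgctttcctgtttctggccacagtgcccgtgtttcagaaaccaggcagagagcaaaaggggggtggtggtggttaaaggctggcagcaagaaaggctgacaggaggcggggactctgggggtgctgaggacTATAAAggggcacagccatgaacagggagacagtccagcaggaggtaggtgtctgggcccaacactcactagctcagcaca
Sst, chr16:23890795-23891094, minus strand: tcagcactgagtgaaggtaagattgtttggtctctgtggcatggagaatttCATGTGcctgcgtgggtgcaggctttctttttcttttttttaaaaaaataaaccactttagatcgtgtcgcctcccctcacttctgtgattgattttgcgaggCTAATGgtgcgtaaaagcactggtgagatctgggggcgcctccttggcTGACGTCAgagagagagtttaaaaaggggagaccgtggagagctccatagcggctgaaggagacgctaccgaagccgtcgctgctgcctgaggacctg
TATAAA was found in the windows of 2 members, Gcg and Ppy, and in 13.6% of all 32851 RefSeq promoter windows, or for 15.7% of the 27025 genes with a window. Members have up to 4 windows, so the share of genes is the nearer comparison. At least 1 E box was found for 6 of the 7 members, all but Ppy, and in 72.3% of all windows (75% of genes). CTAATG was found for Sst alone among the members and in 7.36% of all windows (8.49% of genes). TGACGTCA, which begins at position -48 relative to the start of Sst, was likewise found for that member alone and in 1.79% of all windows (2.03% of genes). No matches to different motifs overlapped in the windows of the members. A match is a description of letters and does not show that a factor binds there.

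Expression of the hormone genes was lower in mutant pancreas. By edgeR, 7 of the 8 genes were called lower (adjusted p under 0.05 over all genes tested), whereas 4.28% of all tested genes were called lower and 3.67% higher. No hormone gene was called higher by edgeR, by DESeq2 or by limma voom, and 0 had a positive fold change at an unadjusted p under 0.05. The share of all tested genes at an unadjusted p under 0.05 was not computed, here or for the lists below. DESeq2 called the same number, 7, lower (4.28% of all genes) and limma voom called 6 (4.03% of all genes). In 7 of the 8 genes all mutant values lay below all control values, which was the case for 13.4% of all tested genes. The exception in both counts was Sst. Leaving out mutant pool 1 or control pool 1 reduced the number of hormone genes called to 6. Leaving out mutant pool 2 or mutant pool 3 reduced it to 5, and all these losses were insulin genes. Over all tested genes, edgeR called 628 lower with all libraries. That number was 412, 358 and 343 without mutant pool 1, 2 or 3, and 347, 725 and 416 without control pool 1, 2 or 3. Counts of calls with a library left out, here and below, are to be read beside these numbers. Since the libraries come from whole pancreas, fewer hormone cells and less hormone RNA per cell cannot be told apart here.

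**Figure D1:**
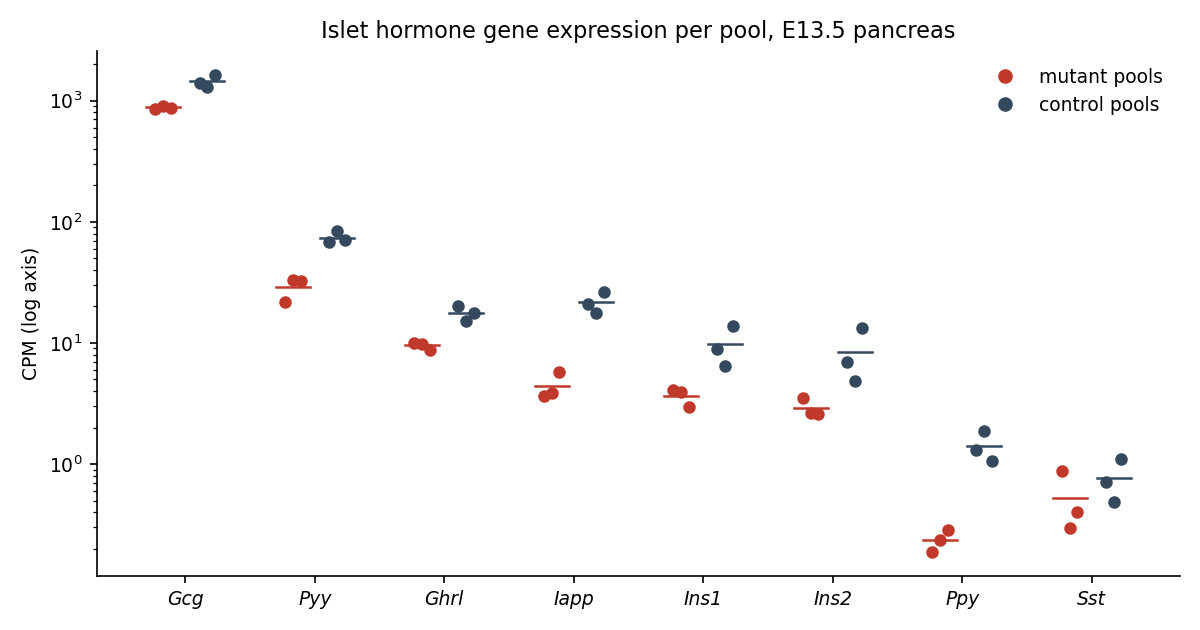
Expression of the 8 hormone genes in each pool, in CPM on a log axis, with mutant pools in red left of control pools in dark blue. Bars mark group means of 3 pools. The groups overlap for Sst and for no other gene shown.

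Gcg, the source of glucagon and the glucagon-like peptides, was the most abundant hormone transcript in every library. It had 858.0, 904.6 and 875.6 CPM in mutant pools 1 to 3, against 1410, 1297 and 1640 CPM in control pools 1 to 3. The highest mutant pool was thus below the lowest control pool, and the mutant pools were tightly grouped. The log2 fold change was -0.72 (SE 0.080, 95% interval -0.90 to -0.54, edgeR adjusted p = 0.00117), a level 1.65-fold lower in mutants. Among the 7 called members Gcg had the smallest fold change.

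Iapp, encoding the beta cell peptide amylin, differed far more. The mutant pools held 3.65, 3.83 and 5.78 CPM (58, 65 and 101 reads), against 21.0, 17.7 and 26.2 CPM (352, 290 and 448 reads) in the control pools. No mutant pool came near the range of the controls. Its level was 4.87-fold lower in mutants (log2 fold change -2.28, SE 0.202, 95% interval -2.74 to -1.83, edgeR adjusted p = 0.000421).

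The insulin genes are close copies of each other, as the last 66 bases of their coding sequences show (GENCODE M21 transcripts). These bases encode the insulin A chain and the stop codon, and capitals mark the 2 bases that differ.
Ins1, chromosome 19: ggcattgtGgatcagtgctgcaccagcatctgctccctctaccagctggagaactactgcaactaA
Ins2, chromosome 7: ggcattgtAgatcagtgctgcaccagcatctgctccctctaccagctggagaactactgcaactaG
Over the whole coding sequences, of 327 and 333 bases, 92.4% of aligned bases were identical. Of 1013 windows of 50 bases in the Ins1 transcript, 7 also occurred in an Ins2 transcript. As neither read length nor the handling of reads with several matches is known, the split of reads between the pair is uncertain where their sequences match.

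Both insulin genes were scarce and both were lower in mutants. Ins1 had 65, 67 and 52 reads in the mutant pools, against 150, 106 and 237 reads in the control pools. Ins2 had 56, 45 and 45 reads in the mutant pools, against 117, 80 and 229 reads in the control pools. The groups did not overlap for either gene, although control pool 3 stood far above control pool 2. In CPM, Ins1 averaged 3.67 ± 0.606 in mutants and 9.75 ± 3.76 in controls, and Ins2 averaged 2.92 ± 0.526 in mutants and 8.41 ± 4.43 in controls (SD, n = 3). The log2 fold change was -1.41 (SE 0.274, edgeR adjusted p = 0.0152) for Ins1 and -1.53 (SE 0.352, edgeR adjusted p = 0.0316) for Ins2.

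Only the insulin genes among the called members lost their edgeR call when a single library was left out. For Ins1 the edgeR adjusted p was 0.0533 when mutant pool 2 was omitted and 0.0604 when mutant pool 3 was omitted. For Ins2 the edgeR call was lost, with an adjusted p of 0.058, 0.111 and 0.103, when mutant pool 1, 2 or 3 was omitted, and with 0.0639 when control pool 1 was omitted. The ratio of Ins2 to Ins1 reads was 0.862, 0.672 and 0.865 in the mutant pools, against 0.780, 0.755 and 0.966 in the control pools. These ranges overlapped, and the log2 ratio differed by -0.060 between mutants and controls (exact permutation test, two-sided, p = 0.7, n = 3 each).

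Ppy, encoding pancreatic polypeptide, had the largest fold difference of the set but very few reads. The mutant pools held 3, 4 and 5 reads, against 22, 31 and 18 reads in the control pools. In CPM this was 0.237 ± 0.0487 in mutants and 1.42 ± 0.428 in controls (SD, n = 3), a level 5.79-fold lower in mutants. The log2 fold change was -2.53 (SE 0.386, 95% interval -3.41 to -1.66, edgeR adjusted p = 0.00511). Ppy reached the minimum of the filter on low counts only in control libraries, and with no filter the value was the same (-2.53, edgeR adjusted p = 0.00395). It was called without each single library, with log2 fold changes between -2.71 and -2.28.

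Pyy, encoding peptide YY, was the most abundant hormone transcript after Gcg. It had 21.7, 32.8 and 32.1 CPM in the mutant pools, against 68.1, 83.7 and 70.1 CPM in the control pools. Mutant pool 1 was the lowest, and no mutant pool came near the level of any control pool. The log2 fold change was -1.35 (SE 0.145, edgeR adjusted p = 0.00098), a level 2.56-fold lower in mutants. Mpp2, the next gene beyond Ppy on that chromosome, stood at 26.4 to 27.4 CPM in mutants and 24.8 to 29.0 CPM in controls and was not called (log2 fold change -0.00, SE 0.074, edgeR adjusted p = 0.99).

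Ghrl, encoding the precursor of ghrelin, showed a smaller difference. It had 160, 167 and 152 reads in the mutant pools, against 338, 247 and 300 reads in the control pools. The groups stood clearly apart, at 9.53 ± 0.732 CPM in mutants and 17.6 ± 2.57 CPM in controls (SD, n = 3). The log2 fold change was -0.88 (SE 0.126, edgeR adjusted p = 0.00383), a level 1.85-fold lower in mutants.

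Sst, encoding somatostatin, was the member that was not called. It had 14, 5 and 7 reads in the mutant pools, against 12, 8 and 19 reads in the control pools. Mutant pool 1 exceeded control pools 1 and 2, so the groups overlapped. The log2 fold change of -0.57 (SE 0.484) had a 95% interval from -1.67 to 0.53 (edgeR adjusted p = 0.577). At this depth the interval holds no change as well as the fold changes of Gcg, Ghrl, Pyy, Ins1 and Ins2. It does not hold those of Iapp and Ppy.

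**Figure D2:**
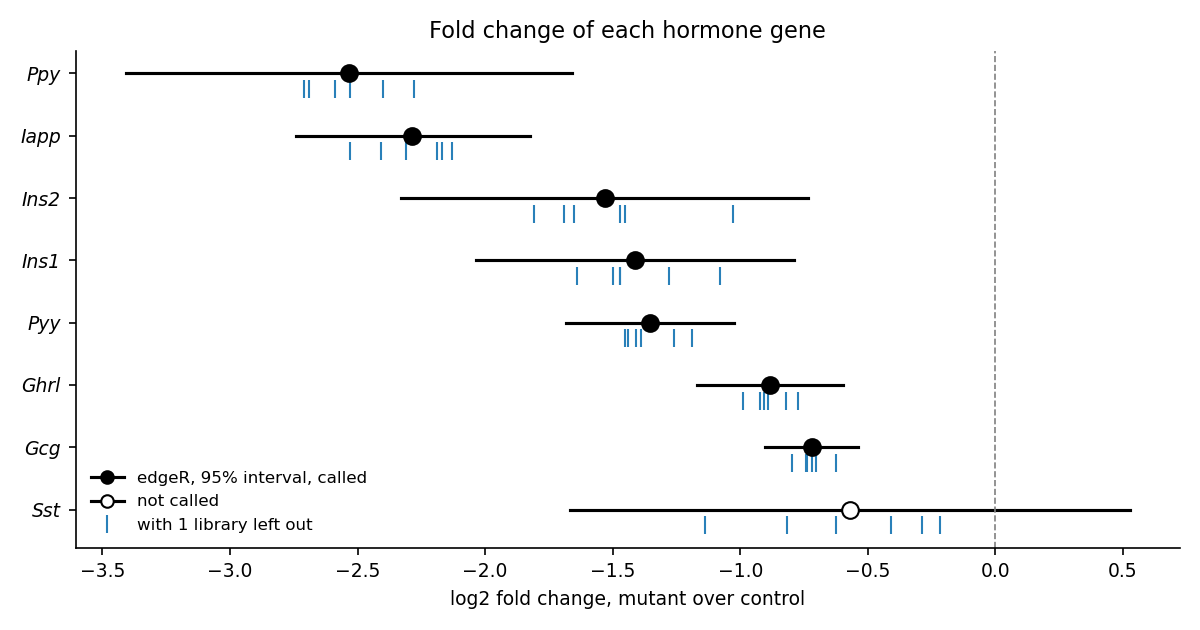
Log2 fold change of each hormone gene, mutant over control, with its 95% interval from edgeR. Filled points were called, the open point was not, and blue ticks give the values with 1 library left out. Ppy and Iapp lie beyond -2, and every called gene stays below 0 with any library left out.

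Compared per kilobase of annotated exon, the hormone genes spanned about 3 orders of magnitude. In mutants the mean levels were 588.6 CPM per kb for Gcg, 45.7 for Pyy, 8.83 for Ghrl, 4.54 for Iapp, 3.46 for Ins1, 2.22 for Ins2, 0.728 for Sst and 0.474 for Ppy. In controls they were 970.0 CPM per kb for Gcg, 117.2 for Pyy, 22.2 for Iapp, 16.3 for Ghrl, 9.18 for Ins1, 6.41 for Ins2, 2.84 for Ppy and 1.07 for Sst. Iapp thus ranked below Ghrl in mutants and above it in controls, and Ppy ranked below Sst in mutants and above it in controls. Not every neighbour in these orders was separated by its spread. In mutants the ranges of Iapp and Ins1 overlapped, as did those of Sst and Ppy. In controls the ranges overlapped for Iapp and Ghrl, for Ins1 and Ins2, and for Ins2 and Ppy. With coding length in place of exon length the order was the same, and the ranges then overlapped for Ins1 and Ins2 in both groups and for Sst and Ppy in mutants.

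Summed over the 8 genes, hormone transcripts made up 0.0893%, 0.0948% and 0.0920% of all reads in mutant pools 1 to 3, against 0.155%, 0.143% and 0.180% in control pools 1 to 3. Each share had a narrow Wilson 95% interval, for example 0.0934% to 0.0963% in mutant pool 2 and 0.142% to 0.145% in control pool 2, which covers counting error only. The sum was 929.5 ± 28.02 CPM in mutants and 1583 ± 182.7 CPM in controls (SD, n = 3), so mutants held 0.587 of the control level. Without Gcg, the other 7 genes summed to 50.2 ± 5.28 CPM in mutants and 133.5 ± 8.54 CPM in controls, or 0.376 of the control level. The sum is dominated by Gcg and was given no test.

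The make-up of this hormone pool was compared as shares. Taking reads per exon length, Gcg accounted for 91.2%, 89.4% and 89.2% of the pool in mutants, against 85.1%, 82.9% and 85.8% in controls. The share of Gcg was therefore higher in each mutant pool than in each control pool, although its level was lower. The difference in means was 5.33 percentage points, and 3.08 points when raw reads were used in place of reads per length. With 3 pools against 3, the exact permutation test cannot give a two-sided p below 0.1, and it gave 0.1 here (0.2 after Benjamini-Hochberg adjustment over the 8 shares).

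Iapp, Pyy and Ppy took smaller shares. Iapp made up 0.594%, 0.581% and 0.903% of the pool in mutants, against 1.94%, 1.73% and 2.10% in controls. Pyy made up 5.46%, 7.67% and 7.76% in mutants, against 9.72%, 12.7% and 8.69% in controls. Ppy made up 0.0599%, 0.0696% and 0.0871% in mutants, against 0.237%, 0.361% and 0.164% in controls. For each of these 3 genes the groups did not overlap, and the exact permutation p was 0.1, the smallest possible. Using raw reads, the difference became -1.65 points for Pyy, against -3.40 per exon length, and -0.0668 points for Ppy, against -0.182. Leaving out control pool 2 brought the difference for Pyy to -2.24 points.

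For the remaining 4 genes the shares of the groups overlapped. Ins1 averaged 0.529 ± 0.0939% in mutants and 0.787 ± 0.221% in controls, and Ins2 averaged 0.341 ± 0.0736% in mutants and 0.544 ± 0.228% in controls (SD, n = 3, exact permutation p = 0.2 for both). Without control pool 3 the difference was -0.142 points for Ins1, against -0.258 with it, and -0.0762 points for Ins2, against -0.203 with it. Ghrl held 1.35 ± 0.127% in mutants and 1.43 ± 0.224% in controls (exact permutation p = 0.7, n = 3 each). Sst held 0.113 ± 0.0711% in mutants and 0.0915 ± 0.028% in controls (exact permutation p = 0.9, n = 3 each). Ins2 shares depend on the length used, because its 1312 annotated exon bases include the distant exons while its coding sequence has 333 bases.

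**Figure D3:**
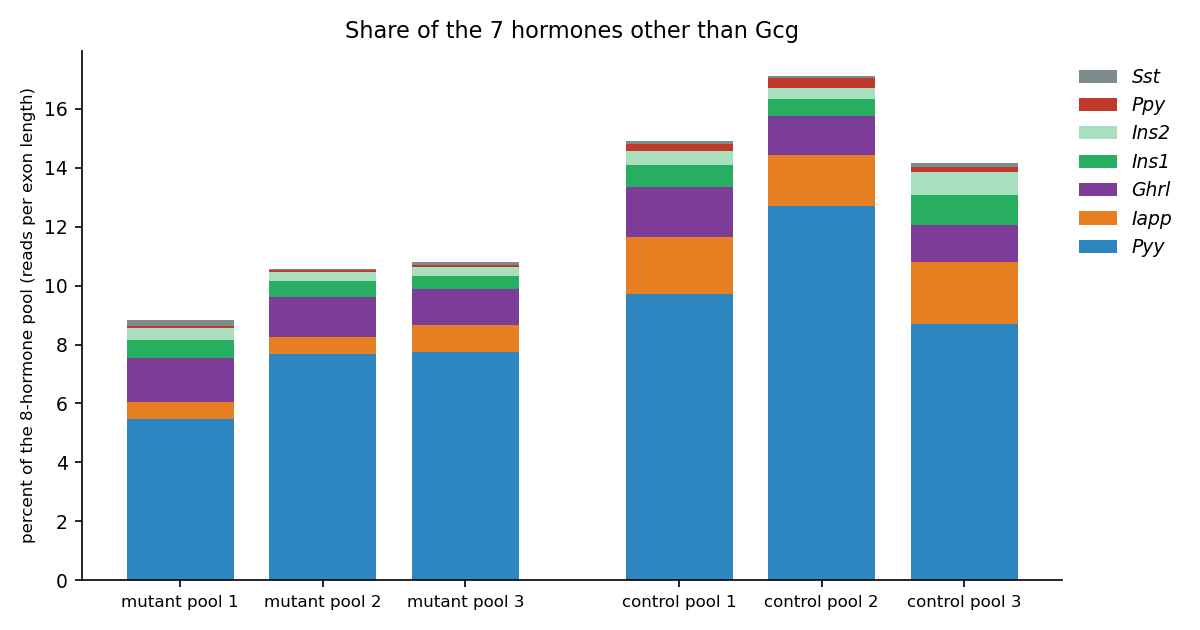
Percent of the 8-hormone pool, in reads per exon length, held by the 7 hormone genes other than Gcg, with mutant pools left of control pools. Gcg makes up the rest of each pool. The 7 genes together held 8.82% to 10.8% in mutants and 14.2% to 17.1% in controls.

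Ratios of reads within a library do not depend on library scaling. Relative to Gcg, the log2 ratio in mutants minus that in controls was -1.70 (SE 0.366) for Ppy, -1.58 (SE 0.221) for Iapp, -0.66 (SE 0.249) for Pyy and -0.63 (SE 0.263) for Ins1. All mutant pools lay below all control pools for these 4 genes, with an exact permutation p of 0.1 each (n = 3 each), adjusted to 0.175 over the 7 ratios. For Ins2 the difference was -0.69 (SE 0.363), for Ghrl -0.16 (SE 0.143) and for Sst 0.12 (SE 0.520), and the groups overlapped for all 3. The value for Ins2 was -0.39 without control pool 3. That for Ghrl was -0.04 when control pool 1 was omitted, -0.10 when mutant pool 3 was omitted and -0.25 when control pool 3 was omitted. The direction for Sst turned to -0.33 without mutant pool 1 and to -0.09 without control pool 2.

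Chga, encoding chromogranin A of the granules of endocrine cells generally, gave a second point of comparison. Chga stood at 74.6, 90.1 and 84.7 CPM in mutants, against 116.1, 96.6 and 154.1 CPM in controls. It was not called (log2 fold change -0.56, SE 0.149, edgeR adjusted p = 0.0564). All its mutant values lay below all its control values, so differences relative to Chga are smaller than those in CPM and depend on this reference. The share of all genes whose ratio to Gcg or Chga does not overlap was not computed. Relative to Chga, Ppy differed by -1.88, Iapp by -1.76, Ins2 by -0.87, Pyy by -0.84 and Ins1 by -0.81, with no overlap between the groups (exact permutation p = 0.1 each, 0.16 adjusted over the 8 ratios, n = 3 each). Gcg differed by -0.18 (SE 0.114), Ghrl by -0.34 (SE 0.218) and Sst by -0.06 (SE 0.543), and their groups overlapped. The value for Gcg was -0.10 without control pool 2, and that for Ghrl was -0.21 without control pool 1 and -0.52 without control pool 3. The ratio of Iapp to the sum of both insulin genes was 0.479, 0.580 and 1.04 in mutants, against 1.32, 1.56 and 0.961 in controls. Mutant pool 3 exceeded control pool 3, so this ratio overlapped (exact permutation p = 0.2, n = 3 each). The ratio of Ppy to Pyy reads was 0.0087, 0.00719 and 0.0089 in mutants, against 0.0193, 0.0226 and 0.015 in controls, with no overlap (exact permutation p = 0.1, n = 3 each).

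**Figure D4:**
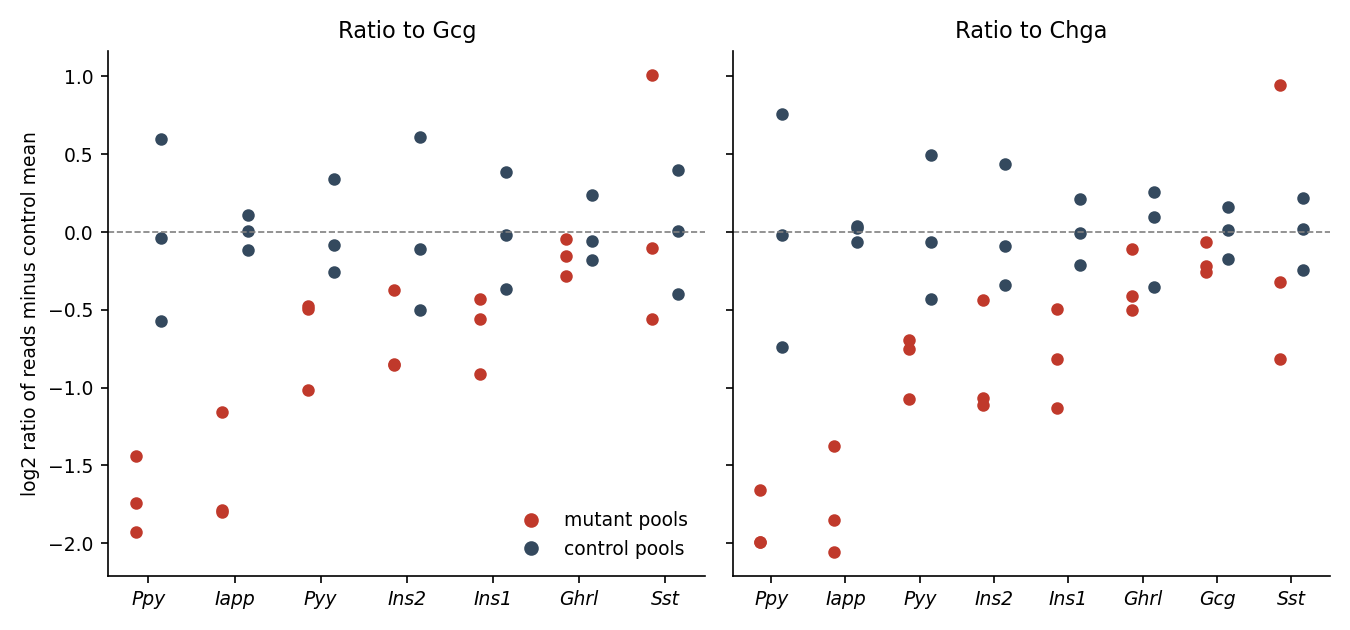
Log2 ratio of the reads of each hormone gene to those of Gcg (left) and of Chga (right), as the difference from the control mean. Each point is 1 pool, with mutants in red left of controls in dark blue. Ppy and Iapp lie more than 1 below the control mean in every mutant pool, while Sst spreads over both sides.

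The pools of a group did not deviate in the same way for every hormone. Control pool 3 had the highest CPM of the controls for Gcg, Ins1, Ins2, Iapp and Sst, and control pool 2 had the lowest for these 5 genes and for Ghrl. Pyy and Ppy ran the other way and were highest in control pool 2. Among the mutants, pool 1 was highest for Ins1, Ins2, Sst and Ghrl and lowest for Gcg, Iapp, Ppy and Pyy. After removing group means, deviations of log2 CPM over the 6 libraries correlated at r = 0.948 between Ins1 and Ins2 and at r = 0.685 between Ppy and Pyy, against r = -0.96 between Ins1 and Ppy. These values describe 6 libraries that share depth and scaling, and Ppy and Sst add large counting error. Control pool 3 and mutant pool 1 are also the pools with almost no Xist reads, and the part of this in the deviations was not tested. Without both pools, edgeR again called 7 hormone genes lower, with log2 fold changes of -0.61 for Gcg, -2.01 for Iapp, -1.16 for Ins1, -1.18 for Ins2, -2.58 for Ppy, -1.23 for Pyy and -0.93 for Ghrl.

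Most listed genes that regulate the hormone genes were called lower in mutants. This list and those below were chosen with earlier results of these data known. Of 20 listed transcription factors, 19 were tested and 13 were called lower by edgeR (4.28% of all genes). The median log2 fold change of the tested factors was -0.595, against 0.000547 over all genes tested. None was called higher by edgeR or DESeq2, and 1 had a positive fold change at an unadjusted p under 0.05. Pax6, which acts on the promoters of several hormone genes, averaged 15.1 ± 2.41 CPM in mutants and 31.4 ± 4.54 CPM in controls. Neurog3 averaged 65.7 ± 3.37 CPM in mutants and 139.4 ± 25.4 CPM in controls (SD, n = 3). Both were called (edgeR adjusted p = 0.00259 for Pax6 and 0.00105 for Neurog3). Pdx1, an activator of insulin transcription, had a log2 fold change of -0.30 (SE 0.101) and Foxa2, a factor of the early endoderm, one of -0.21 (SE 0.074), and neither was called. Mafa, a late beta cell activator of insulin, had only 49 reads over all libraries and was not tested.

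Of 16 genes for prohormone processing and granule proteins, all were tested and 7 were called lower (4.28% of all genes). Their median log2 fold change over the list was -0.54. None was called higher by edgeR or DESeq2, and 0 had a positive fold change at an unadjusted p under 0.05. Pcsk2, the convertase that releases glucagon from its precursor, averaged 37.0 ± 4.27 CPM in mutants and 75.1 ± 5.55 CPM in controls (SD, n = 3, log2 fold change -1.02, edgeR adjusted p = 0.000407). The granule membrane genes Ptprn and Ptprn2 were called lower (log2 fold changes -0.58 and -0.77, edgeR adjusted p = 0.0028 for both). Chgb, encoding chromogranin B, at -0.13 (SE 0.176) and Pam, the peptide amidating enzyme, at -0.15 (SE 0.056) were not called. Pcsk1, the convertase of beta cells, and Mboat4, the enzyme that acylates ghrelin, were picked after their values had been seen. Pcsk1 averaged 17.3 ± 2.48 CPM in mutants and 20.7 ± 6.29 CPM in controls, and Mboat4 averaged 1.68 ± 0.668 CPM in mutants and 2.84 ± 0.709 CPM in controls (SD, n = 3). Neither was called (edgeR adjusted p = 0.530 and 0.205).

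Receptors for the islet hormones showed no common direction. Of 20 listed genes, 15 were tested and 4 were called lower by edgeR (4.28% of all genes). The median log2 fold change of the tested receptors was 0.04. None was called higher by edgeR or DESeq2, although 2 had a positive fold change at an unadjusted p under 0.05, for which no share of all genes was computed. The genes called lower were the somatostatin receptor genes Sstr3 (-1.37, SE 0.173), Sstr1 (-1.43, SE 0.345) and Sstr2 (-0.96, SE 0.246) and the insulin receptor-related gene Insrr (-0.43, SE 0.108). Sstr1, with 67 reads in all, reached the minimum of the filter on low counts only in control libraries, at 0.314, 0.412 and 0.343 CPM in mutants and 0.836, 0.853 and 1.23 CPM in controls. Sstr3 averaged 1.75 ± 0.128 CPM in mutants and 4.51 ± 0.294 CPM in controls (SD, n = 3). DESeq2 called 2 receptors lower. In edgeR 1 was called when any mutant pool or control pool 1 was omitted, 2 when control pool 3 was omitted and 3 when control pool 2 was omitted. In the last case 1 receptor was also called higher. The insulin receptor gene Insr (-0.09, SE 0.044) and the related Igf1r (0.18, SE 0.064) were not called. Ghsr, the ghrelin receptor gene, had 0 reads in every library, which allows up to 0.189 CPM in mutant pool 1 and less in the others.

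Markers of the hormone cell types other than the hormones were also counted. All 8 alpha cell markers were tested and called lower (4.28% of all genes), with a median log2 fold change of -0.88. Of them, 5 are also on the list of hormone gene regulators. The number called was 7 when mutant pool 1, mutant pool 2 or control pool 3 was omitted, and 6 when mutant pool 3 was omitted. The amino acid transporter gene Slc38a5 averaged 177.7 ± 26.2 CPM in mutants and 332.0 ± 29.9 CPM in controls, and Ttr, encoding transthyretin, 166.3 ± 14.1 CPM in mutants and 305.3 ± 65.1 CPM in controls (SD, n = 3). Of 10 beta cell markers, 8 were tested and 1 was called lower, with a median of -0.30. At an unadjusted p under 0.05, for which no share of all genes was computed, 4 were lower. The called gene was Nkx6-1 (-0.45, SE 0.108), whose call was lost without any one of the mutant pools or without control pool 3. The glucose transporter gene Slc2a2 was at 47.6 ± 9.73 CPM in mutants and 50.4 ± 9.94 CPM in controls (SD, n = 3) and was not called. Mafa (49 reads in all) and Ucn3 (9 reads in all) had too few reads to be tested. Both stood lower in every mutant pool than in every control pool, as did 13.4% of the genes that were tested. The gaps were small. For Ucn3 it was 0 CPM in the mutant pools against 0.061 CPM in control pool 2. For Mafa it was 0.354 CPM in mutant pool 2 against 0.487 CPM in control pool 2. Among the hormone genes themselves, Iapp, Ins1 and Ins2 had larger fold changes than Gcg. The difference between the lists was not tested. The most abundant beta cell markers in controls were Nkx6-1 (86.6 CPM), Pdx1 (50.4 CPM) and Slc2a2 (50.4 CPM), whereas Ins1 averaged 9.75 CPM. Which cells of the whole pancreas expressed these markers was not tested, so the list does not measure beta cells alone.

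**Figure D5:**
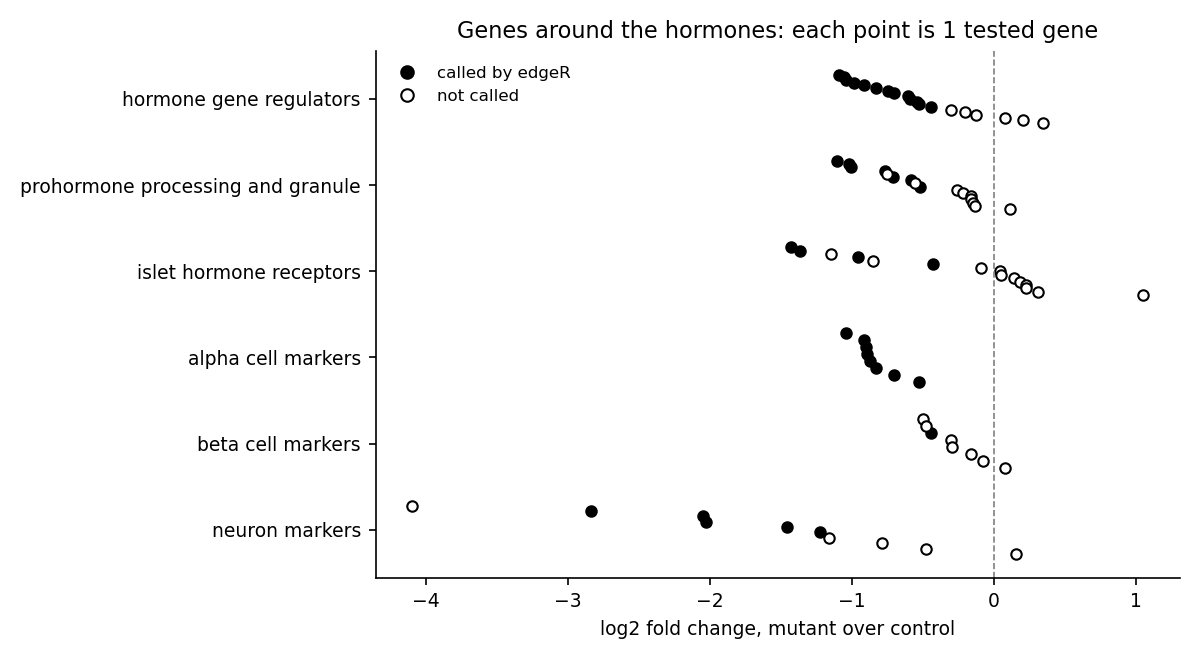
Log2 fold change, mutant over control, of each tested gene in 6 lists. Filled points were called by edgeR and open points were not. All alpha cell markers lie below 0 and are filled, and 1 of 8 tested beta cell markers is filled. The beta cell markers Mafa and Ucn3 were not tested and are not shown. Which cells expressed the markers was not tested.

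Several hormones of the set are also made outside the islet, in gut endocrine cells and neurons. Among 13 listed enteroendocrine and gut markers, 6 were tested, 2 were called lower (3 by DESeq2) and 2 higher. The shares of all tested genes called by edgeR were 4.28% lower and 3.67% higher. The peptide hormone genes Cck (log2 fold change 2.04) and Gip (2.63) were higher, while Gast (-1.99) and Sct (-1.59) were lower. The list summed to 67.5 to 81.2 CPM in mutants and 29.3 to 33.7 CPM in controls. Cck alone averaged 51.82 CPM in mutants and 12.55 CPM in controls, and Gip 13.91 CPM in mutants and 2.25 CPM in controls. The median log2 fold change of the 6 tested genes was -0.668, so the sum does not describe the list as a whole. The intestinal gene Cdh17 stood at 1.78 ± 0.337 CPM in mutants and 1.49 ± 0.0885 CPM in controls (SD, n = 3) and was not called. Sox2, a stomach and neural progenitor gene, had 0.566, 0.354 and 0.458 CPM in mutants, against 0.716, 5.73 and 0.701 CPM in controls, and was not called (log2 fold change -2.35, SE 0.875, edgeR adjusted p = 0.155). Its excess was in control pool 2, where Ppy and Pyy were also highest. The gut genes Cdx1, Cdx2, Tff2 and Gkn1, picked after their values had been seen, stood at no more than 0.176 CPM on average in mutants and 0.357 CPM in controls, and Gkn1 had 0 reads. The part of gut cells in the hormone results was not tested. Of 11 neuron markers, 10 were tested and 5 were called lower by edgeR and 6 by DESeq2. The edgeR count was 3 with mutant pool 2 omitted, 4 with mutant pool 1 or 3 omitted and 6 with any 1 control pool omitted. Vip, called by edgeR, and Dbh, not called by edgeR, reached the minimum of the filter on low counts only in control libraries. Vip had 0.189, 0.295 and 0.172 CPM in mutants, against 0.776, 1.40 and 2.63 CPM in controls. Tubb3, a neuronal tubulin gene, averaged 8.97 ± 0.763 CPM in mutants and 24.6 ± 10.1 CPM in controls (SD, n = 3). Stmn2, a gene for a neuronal growth protein, stood at 24.6 ± 5.40 CPM in mutants and 22.0 ± 8.80 CPM in controls (SD, n = 3) and was not called (edgeR adjusted p = 0.814). The neuron list summed to 56.7, 43.5 and 45.3 CPM in mutants, against 64.7, 71.1 and 131.2 CPM in controls. Control pool 3, the control pool highest for 5 hormone genes, thus stood far above the other controls, with 36.1 CPM of Tubb3 and 12.6 CPM of Prph, which encodes peripherin. The part of neurons in the hormone results was not tested.

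Markers of other cells gave calls in both directions. Of all genes tested, 4.28% were called lower and 3.67% higher. Among 7 tested acinar genes Cpb1 was called higher and Bhlha15 lower, the second call being lost without mutant pool 2 or 3 or control pool 1 or 3. Among 6 duct and progenitor genes Krt19 was called higher and 1 gene lower. The number called lower was 0 when any single library was omitted, and DESeq2 called 2 lower. Among 6 mesenchyme genes Col1a1 was called higher by edgeR. DESeq2 called 3 mesenchyme genes higher, and edgeR called 3 when control pool 2 was omitted, 2 when mutant pool 3 was omitted and 0 when any other pool was omitted. Among 5 endothelial genes Flt1 was called higher, a call lost without mutant pool 1 or 3 or control pool 1 or 3. Among 6 erythroid genes 2 were called higher, 1 of them Hemgn. For macrophages, 0 of 5 genes were called by edgeR or DESeq2, 1 had an unadjusted p under 0.05, and 1 was called higher by edgeR without control pool 1. The summed levels in mutants and controls were 2106 to 3042 and 1379 to 2908 CPM for acinar, 828.7 to 985.9 and 991.9 to 1072 CPM for duct and progenitor, and 7411 to 8360 and 6624 to 6785 CPM for mesenchyme genes. They were 533.0 to 695.2 and 473.5 to 537.9 CPM for endothelium, 1632 to 2437 and 1460 to 2327 CPM for erythroid, and 126.6 to 147.6 and 109.3 to 133.5 CPM for macrophage genes. In every mutant pool the duct and progenitor sum was below, and the mesenchyme sum above, that of every control pool. The duct and progenitor sum was mostly Spp1, whose groups overlapped (674.3 CPM in mutant pool 2, 668.4 CPM in control pool 2). The mesenchyme sum was mostly Col3a1 and Col1a1. Groups overlapped for Pdgfra, Acta2 and Vim but not for Pdgfrb. How often sums of other genes separate in this way was not computed. The part of the cell types listed here in the hormone results was not tested.

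Genes whose log2 CPM followed Gcg and Iapp most closely over the 6 libraries were sought among the 13233 genes whose log2 CPM averaged 1 or more. For Gcg these were Klhdc7a (Pearson r = 0.997), Rap1gap2 (0.995), Sim1 (0.995), Steap1 (0.995) and Tmem27 (0.995). Of these, 4 were called lower by edgeR, and Steap1 was not (log2 fold change -0.36, adjusted p = 0.217). After removing group means, r was between 0.935 and 0.973. For Iapp they were Mcart6 (r = 0.999), Gnas (0.995), the alpha cell factor gene Pou3f4 (0.994), Tmem130 (0.994) and Osgin1 (0.994). After removing group means, r was between 0.865 and 0.974 for these genes. Gnas, which encodes a signalling G protein subunit, averaged 2428 CPM in mutants and 2564 CPM in controls and was not called (log2 fold change -0.08, SE 0.040, edgeR adjusted p = 0.319). The libraries share group, depth and scaling, so these correlations are descriptions. As the genes were picked for the highest r over the same libraries, a high r after removing group means was partly built in.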

How the data were processed

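The authors deposited raw read counts per gene symbol, as whole numbers without normalization. Tools named in the submitters' processing notes are STAR, cutadapt 1.13, DESeq2 and HTSeq 0.6.1p1, and the build is mm10. Annotation, strand setting and read length are not known here. Per the labels' protocols RNA was extracted with Trizol, while the design text names a column kit. Nothing says that pools were independent litters, so p-values measure the spread between these pools.

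Genotypes were compared in edgeR 4.0.16 under R 4.3.3 (filterByExpr with a minimum count of 10, TMM, quasi-likelihood F test, genotype only). P-values were Benjamini-Hochberg adjusted over 14687 genes and genes were called at an adjusted p under 0.05. Standard errors came from the coefficient and its F value, and 95% intervals used the t distribution. The biological coefficient of variation was 8.19%. CPM used TMM-scaled library totals. Shares used union exon lengths from GENCODE M21, and log2 ratios used a pseudocount of 0.5. Both were compared with exact permutation tests, whose smallest two-sided p is 0.1. The edgeR script was tested on simulated counts.

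The members and 13 gene lists were chosen with earlier results of these data known. Of 134 list entries, 131 matched directly and 3 through an older symbol. The rule for named genes took the 8 members, Prox1, Xist, Ddx3y, Neurog3 and Chga, up to 3 called list members with the smallest adjusted p and up to 2 abundant uncalled ones. It also took 5 genes each with the highest correlation with Gcg and Iapp, and genes within 20 kb of a member. Other genes named are list members that were chosen after their values were seen. A few genes that the rule takes are not reported here. Alternatives were other scalings and filters, DESeq2 1.42.0, limma 3.58.1 voom, robust estimation, a replicate block, and libraries left out. Protein identities were planned but not made, and coding sequences were compared instead.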

Additional observations from a re-analysis of the deposited data

How the results depend on the processing

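The members called lower numbered 5 to 7 in every setting tried, and all 7 called genes stayed lower in each. Over single libraries left out, log2 fold changes ran from -0.80 to -0.63 for Gcg, -1.64 to -1.08 for Ins1, -1.81 to -1.03 for Ins2, -2.53 to -2.13 for Iapp, -2.71 to -2.28 for Ppy, -1.45 to -1.19 for Pyy, -0.99 to -0.77 for Ghrl and -1.14 to -0.22 for Sst. Limma voom left Ins2 uncalled (-1.42, adjusted p = 0.0701), and the cause was not tested. Sst gave no value with a minimum of 1 CPM or without both pools with almost no Xist, because it did not pass those filters.

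Values for Sst and Ghrl near 0 changed sign, as few reads or small differences allow. Without both pools with almost no Xist, Sst differed by -0.00461 points in share and by -0.13 in log2 ratio to Gcg. With a pseudocount of 2, its log2 ratio to Chga differed by 0.0179. Leaving out single libraries gave -0.0191 to 0.0477 points for the Sst share, -0.33 to 0.45 for its ratio to Gcg, -0.57 to 0.31 for its ratio to Chga, and -0.157 to 0.0502 points for the Ghrl share. Receptors called lower numbered 2 with DESeq2 and 1 to 3, and called higher 0 to 1, without single libraries.

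Deviations from group means correlated at 0.14, 0.10 and -0.05 between pools of equal replicate number. Between pools of unequal number they correlated at -0.23 to 0.16. These values cannot show whether pools of equal number shared a litter or day, which the labels do not say. With the replicate block, 7 members were again called lower, and 562 genes in all were called lower and 576 higher (628 and 539 without the block). Log2 fold changes with the block were -0.71 for Gcg, -1.36 for Ins1, -1.45 for Ins2, -2.29 for Iapp, -0.58 for Sst, -2.52 for Ppy, -1.37 for Pyy and -0.88 for Ghrl. Low read counts limit Sst and Ppy.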
